A study of Mus musculus with 8 samples.

Results

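Jejunal crypts from mice with floxed Cdx2 and an activated Braf allele were compared with crypts that carried the activated Braf allele alone. The comparison takes 2 libraries labelled CDX2KO_BRAF and 3 libraries labelled BRAF, 5 of the 8 libraries of the series, chosen by their labels. Both groups carried BRAF-V600Ef/+, a conditional activated form of the MAPK kinase gene Braf. They also carried Villin-CreER(T2), whose recombinase works in Villin-expressing intestinal epithelium after tamoxifen. CDX2KO_BRAF mice carried Cdx2f/f in addition, and the remaining group, SMAD4KO_BRAF (3 libraries), carried Smad4f/f in its place. Tamoxifen was injected on 4 consecutive days in all 3 groups, and crypts were taken 1 day later by 3 mM EDTA and a 70 micron filter, so every value describes an early time. No library without the Braf allele was used, and neither the age of the mice nor whether each library is 1 mouse is given in the sources used here.

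Cdx2 is a homeobox transcription factor of the intestinal epithelium. It binds near enterocyte genes, maintains their transcription together with Hnf4 and Gata factors, and keeps the epithelium intestinal rather than stomach-like. Loss of Cdx2 from intestinal epithelium is known for the appearance of stomach genes such as those of pit and mucous neck cells, and low CDX2 is a feature of human colorectal tumours with the activated BRAF allele.

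Values are FPKM, which are scaled for gene length and library size. Differences are in log2(FPKM + 1), labelled libraries minus BRAF, ± the standard error, with p from limma adjusted by the Benjamini-Hochberg method over 11629 genes. The log scale understates changes of low genes. Of 23951 gene symbols, 5247 were at 0 in all 8 libraries, and some genes that every cell uses were listed near 0, such as Hmgcs1 (0 in all 8) and Gapdh (at most 1.62), so an exact 0 is given only as a listed 0. A call is said to hold where it stood without each of the 5 libraries in turn and under the other alternatives except a test against a minimum difference. For a gene described as called whose call does not hold, the libraries without which it ended are given, and further alternatives only in part. The labels do not say which libraries are separate mice, so the spread behind each p may be technical in part.

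The deleted gene went against its label. Cdx2 was at 64.2, 82.6 and 80.1 FPKM in BRAF libraries 0 to 2, and at 155 and 121 in the libraries labelled CDX2KO_BRAF 0 and 1 (called the labelled libraries here). Both labelled libraries lay above all BRAF libraries, by 0.86 ± 0.18 (limma, adjusted p = 0.0197). The call ended without labelled library 0 (adjusted p = 0.130) or labelled library 1 (0.0519). A whole-gene FPKM does not resolve the floxed exons, so the deletion itself is unchecked here, and every direction rests on the label. Braf was at 3.66 and 4.14 against 3.85 to 4.47 (limma, adjusted p = 0.663), and the activated and the other allele cannot be told apart in these values. Smad4, the gene deleted in the other group, was at 42.5, 47.0 and 42.4 in BRAF and 40.1 and 35.3 in the labelled libraries (limma, adjusted p = 0.374).

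Of the tested genes, 865 were higher in the labelled libraries (7.44% of those tested) and 898 were lower (7.72%), and in each of these genes the 2 labelled libraries lay wholly outside the 3 BRAF libraries. Such separation alone, with no test, was seen in 26.6% of tested genes upward and 22.6% downward (49.2% in either direction). The change was 1 or more on the log2 scale in 448 of the higher genes and -1 or less in 597 of the lower genes. The median over all tested genes was 0.04. Against SMAD4KO_BRAF, the other labelled deletion in the same Braf background, 820 genes were higher (7.05%) and 598 were lower (5.14%). Of the 865 higher genes 597 also passed against SMAD4KO_BRAF upward, and of the 898 lower genes 438 also passed downward. None passed in the opposite direction. The tested genes include 148 with all BRAF libraries under 1 FPKM, which entered only through the labelled libraries, and 115 of these are among the higher genes. They also include 447 with both labelled libraries under 1 FPKM, which entered only through BRAF, and 146 of these are among the lower genes.

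The single libraries carry much of these counts. The higher genes numbered 261 without labelled library 1 and 391 without labelled library 0, and the lower genes 294 and 388. Without BRAF library 2 there were 495 higher and 595 lower genes. Of the 865 higher genes 214 stood in each of the 5 fits that leave out 1 library, and 243 of the 898 lower genes. BRAF library 0 was male by its Y-linked genes, and the other 4 were female, so the BRAF libraries come from more than 1 mouse.

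Epithelial identity and admixture of other cells were read from marker lists. Epithelial markers, 9 genes from Epcam to Cdh17, summed to 7853 to 11390 FPKM in BRAF and 8705 and 10110 in the labelled libraries, with 2 of 9 lower. T cell markers summed to 25.7, 677 and 125 FPKM in BRAF and to 8.59 and 47.8 in the labelled libraries, and mesenchymal markers to 6.55, 108 and 25.5 against 2.27 and 15.8. BRAF library 1 was highest for both. None of the 8 T cell and 5 tested mesenchymal markers passed, and the part of these cells in other results was not tested. In bulk crypts fewer cells of a type and less RNA per cell cannot be told apart.

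**Figure D1:**
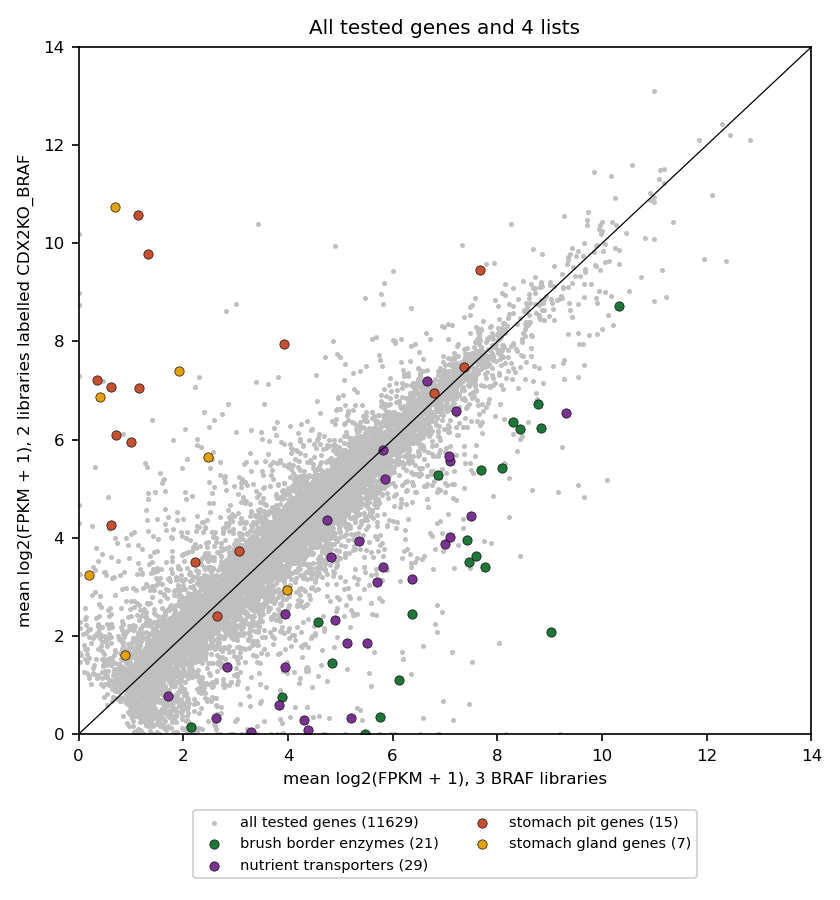
Mean log2(FPKM + 1) of each tested gene in the 3 BRAF libraries (horizontal) and in the 2 labelled libraries (vertical), with 4 gene lists in colour and a line of equal level. Stomach genes stand at the upper left, with Tff2 highest among the gland genes, and brush border enzymes and nutrient transporters lie mostly below the line.

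The genes that rose most are genes of the stomach lining. Tff2, a trefoil peptide of stomach mucous neck and antral gland cells, was at 0.346, 0.326 and 1.37 FPKM in BRAF and 1256 and 2318 in the labelled libraries. It ranked 30 and 14 by FPKM among all genes in the labelled libraries, and its difference was 10.04 ± 0.37 (limma, adjusted p = 1.58e-05, at most 4.53e-04 without any 1 library). Gkn2, a gastrokine secreted by pit cells, was at 2.80, 0 and 1.77 in BRAF and 661 and 3566 in the labelled libraries, by 9.45 ± 0.77 (limma, adjusted p = 6.62e-04). The groups do not overlap for either gene, and the labelled libraries themselves differ several-fold for Gkn2. Gkn1, another gastrokine, was at 6.34, 0 and 1.17 against 391 and 1955. Cldn18, whose stomach form seals the tight junctions of the gastric epithelium, was at 0.731, 0.0259 and 0.151 against 86.7 and 248. For both genes, too, labelled library 1 was the higher of the pair and BRAF library 0 the highest of the BRAF libraries.

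Among 15 tested stomach pit genes 9 were higher and none lower, with a median of 4.03. Cldn18 and Sult1c2 were under 1 FPKM in all BRAF libraries and so could be tested only through the labelled ones, and of the other 13 genes 7 were higher. The list counted 8 or 9 higher genes without each library in turn, and 8 of the 9 calls hold. Sult1c2, a sulfotransferase, was at 0.313 to 0.829 FPKM in BRAF and 114 and 156 in the labelled libraries (6.45 ± 0.22). Vsig1, an adhesion protein of gastric epithelium, was at 5.66, 0.0871 and 0.507 against 98.3 and 175, and Ctse, which encodes cathepsin E, was at 3.40, 0.294 and 0.420 against 29.3 and 126. All BRAF libraries lay far below the labelled ones in these genes, and library 0 was the highest of them for Vsig1 and Ctse. Dpcr1, a mucin-like surface protein, and Capn8, a calpain of the stomach surface, rose by 5.38 ± 0.71 and 1.29 ± 0.18. The call of Psca, named after its values were seen, ended without labelled library 1 (adjusted p = 0.0720) or BRAF library 1 (0.0633) or 2 (0.0726).

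A member of the pit list that did not pass shows how far BRAF libraries differ. Anxa10, an annexin of gastric epithelium, was at 143, 0.362 and 16.6 FPKM in BRAF and 170 and 358 in the labelled libraries (4.03 ± 1.99, limma, adjusted p = 0.225; chosen after its values were seen). BRAF library 0 thus lay just below the labelled libraries while BRAF library 1 was near 0. Set against the mean of BRAF, the pit genes had medians of 0.77, -0.63 and -0.18 in the single BRAF libraries, and of 3.50 and 5.15 in labelled libraries 0 and 1.

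Gland genes of the stomach rose in part. Of 19 listed genes 7 were tested, and 5 of these were higher and none lower. Pgc and Slc9a4 were under 1 FPKM in all BRAF libraries and so could be tested only through the labelled ones, and of the other 5 genes 3 were higher. Pgc, the proenzyme of a pepsin, was at 0.371, 0.120 and 0.547 FPKM in BRAF and 86.0 and 155 in the labelled libraries (6.45 ± 0.29, limma, adjusted p = 4.38e-05). Gkn3, a gastrokine of mucous neck cells, was at 3.10, 2.06 and 3.29 against 130 and 217 (5.49 ± 0.39). Both separate the groups without overlap, and with Tff2 and the sodium-proton exchanger gene Slc9a4 their calls hold. Several gland genes are also genes of Brunner glands, the mucous glands of the duodenum, whose markers Muc6, Tff2, Pgc and Nkx6-3 summed to 0.60 to 2.09 FPKM in BRAF and 1343 and 2475 in the labelled libraries. In the Brunner gland list 4 of 7 genes were higher (Tff2, Pgc, Aqp5 and Wfdc2), 2 to 4 without each library in turn. The part of Brunner gland RNA in these results was not tested. The water channel Aqp5 was at 54.0 and 45.1 against 2.18 to 9.77, but its call ended without BRAF library 2 (adjusted p = 0.0599) or either labelled library (0.112 and 0.0989), and with a replicate block (0.0510).

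Of acid- and enzyme-producing cell genes, Atp4a, Atp4b and Gif stayed near 0 in all 5 libraries, unlike Pgc. Slc9a4, of the same gland list, was at 5.06 and 13.8 FPKM in the labelled libraries and 0.0736 to 0.314 in BRAF. Atp4a and Atp4b, the subunits of the gastric proton pump, were at most 0.995 and 0.0720 FPKM, and Gif, the intrinsic factor gene, was at 0.194 and 0.928 in the labelled libraries. The pit mucin Muc5ac was at 0.00435 and 4.02 in the labelled libraries and listed at 0 in BRAF, the gland mucin Muc6 was at 0.284 and 1.77 against 0.0393 to 0.103, and Tff1, a pit cell peptide, was listed at 0 throughout. So Tff2, Gkn1 and Gkn2 were at rank 161 or higher by FPKM in both labelled libraries while the secreted stomach mucins were low. Sox2 and Barx1, transcription factors of the stomach, were listed at 0 in all libraries.

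The trefoil and gastrokine genes lie in clusters, by their RefSeq neighbours. Gkn1, Gkn2 and Gkn3 are consecutive genes, and all 3 rose. Tff2 lies between Tff3 and Tff1. Tff3, the goblet cell trefoil peptide, was at 1060 to 1251 FPKM in BRAF and at 2772 and 2544 in the labelled libraries, so that the groups do not overlap, but 1.21 ± 0.35 did not pass (limma, adjusted p = 0.0627), although it passed under 7 alternatives, with 0.0184 to 0.0495.

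**Figure D2:**
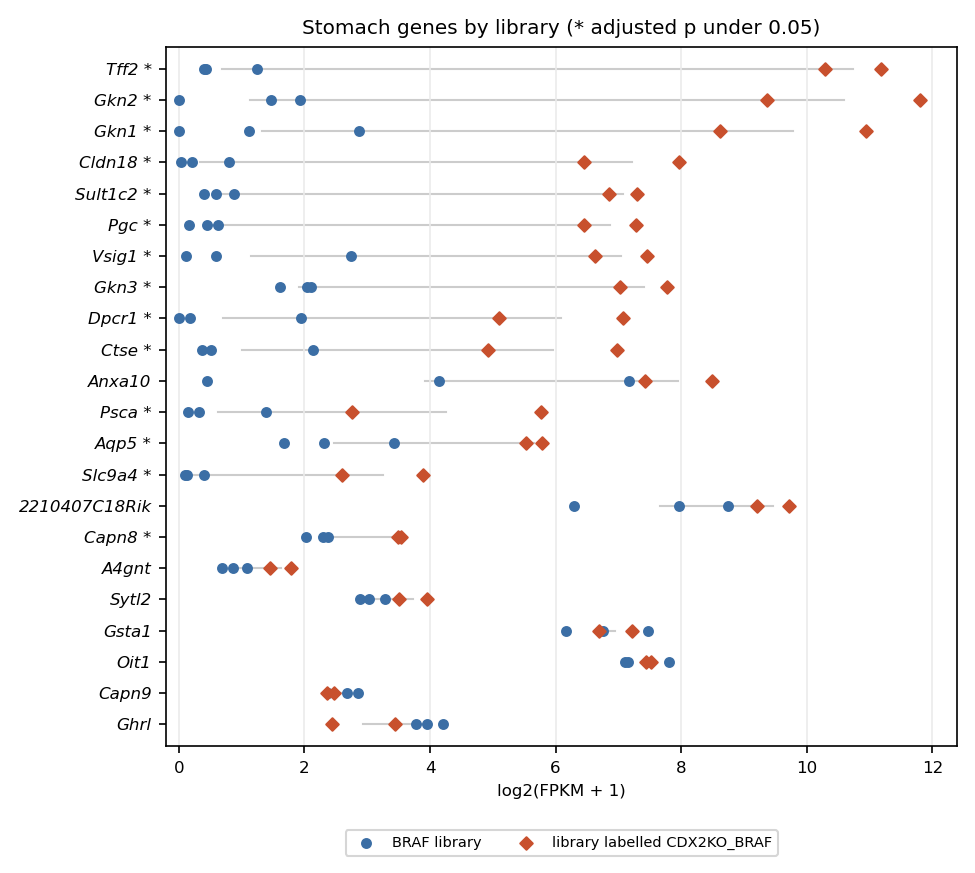
log2(FPKM + 1) of the 22 tested stomach pit and gland genes, with 1 point per library and a grey line between the group means. From Tff2 down to Ctse the labelled libraries (diamonds) stand well above BRAF (circles), Anxa10 in BRAF library 0 lies next to the labelled libraries, and Gsta1 and Oit1 overlap.

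Enzymes of the enterocyte brush border fell almost as a block. Of 21 tested enzymes 19 were lower and none higher, with a median of -3.12, and between 12 and 19 were lower without each library in turn (12 without labelled library 1). In 4 of the 21 both labelled libraries were under 1 FPKM, and of the other 17 enzymes 16 were lower. Sis, which encodes sucrase-isomaltase, was at 755, 368 and 508 FPKM in BRAF and 3.71 and 2.85 in the labelled libraries. The difference was -6.94 ± 0.49 (limma, adjusted p = 3.89e-04, at most 0.00738 without any 1 library). Lct, lactase, was at 76.4, 55.3 and 35.6 against 0.494 and 0.0721 (-5.42 ± 0.56), and Treh, trehalase, at 92.3, 63.9 and 54.6 against 1.43 and 0.895 (-5.02 ± 0.34). The enzymes of 3 different sugars thus lay near 0 in both labelled libraries, and none overlapped BRAF.

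Peptidases of the same membrane fell too. Enpep, glutamyl aminopeptidase, was at 195 to 245 FPKM in BRAF and 15.3 and 5.91 in the labelled libraries (-4.36 ± 0.39), and Mep1a, a meprin subunit, at 20.4 to 27.1 against 3.87 in both (-2.28 ± 0.24). Mme, neprilysin, fell by 3.93 ± 0.37 on the log2 scale. These 3 calls hold and passed against SMAD4KO_BRAF (limma, adjusted p = 0.00253, 0.00640 and 0.00439). Alpi, intestinal alkaline phosphatase, was at 1138, 202 and 404 against 95.6 and 58.4, and its pass (limma, adjusted p = 0.0476) ended without labelled library 0 (0.133) or 1 (0.222) and without BRAF library 0 (0.0626) or 2 (0.10). The brush border list was also below BRAF in SMAD4KO_BRAF, with a median of -1.27 over the same genes, and both comparisons share the BRAF libraries. Against SMAD4KO_BRAF itself 12 of the 21 enzymes were lower in the labelled libraries.

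Many uptake genes were lower. Among 29 tested nutrient transporters 16 were lower and none higher, with a median of -2.58 and 11 to 17 lower without each library in turn. In 7 of them both labelled libraries were under 1 FPKM, and of the other 22 genes 10 were lower. Over the same 29 genes SMAD4KO_BRAF was also below BRAF, with a median of -1.02. Against SMAD4KO_BRAF 10 of the 29 were lower in the labelled libraries and none higher. Slc15a1, the peptide transporter, was at 170, 132 and 92.1 FPKM in BRAF and 15.1 and 12.3 in the labelled libraries (-3.13 ± 0.31, limma, adjusted p = 0.00117). Slc2a5, the fructose transporter, was at 72.9, 29.9 and 40.3 against 2.12 and 3.19, and Slc28a1, a nucleoside transporter, at 27.3, 11.1 and 25.1 against 0.0147 and 0.119. Each of the 3 lay wholly below BRAF and its call holds. Slc13a1, the sulfate transporter, was at 64.2, 12.7 and 55.4 against 0.187 and 0.347.

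Lipid and bile acid genes were lower in part, and both lists were also below BRAF in SMAD4KO_BRAF (medians -0.77 and -0.61). Against SMAD4KO_BRAF 6 lipid and 3 bile acid genes were lower in the labelled libraries, and 1 lipid gene was higher. Of 30 tested lipid genes 13 were lower and 1 higher (median -1.18), and 5 to 10 were lower without each library in turn. The sterol exporters Abcg5 and Abcg8 fell by 2.99 ± 0.37 and 2.92 ± 0.33 on the log2 scale. Fabp1, a fatty acid-binding protein, was among the most abundant mRNAs of BRAF, at ranks 2 to 5, and at ranks 33 and 123 in the labelled libraries, but its call (limma, adjusted p = 0.0311) ended without either labelled library (0.0703 and 0.207), without BRAF library 0 (0.0792) or 2 (0.0810) and with no filter (0.242). Apoa1 and Apoa4, lipoprotein genes, were at -1.12 and -0.93 and did not pass (limma, adjusted p = 0.299 and 0.573). Among 12 bile acid genes 5 were lower and none higher (3 or 4 without each library in turn), and Slc51a, a basolateral bile acid exporter, was at 99.7 to 117 against 11.8 and 7.33. Fabp6, an ileal bile acid-binding protein, was at 71.7, 1083 and 226 against 2.93 and 2.31, and its call ended without labelled library 0 (0.133) or 1 (0.149) or BRAF library 1 (0.0648) or 2 (0.0762).

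Genes of drug and amine metabolism were lower in 13 of 33 and higher in 3 (4 to 10 lower without each library in turn). Abcb1a, a drug efflux pump, was at 143, 132 and 96.1 FPKM in BRAF and 6.45 and 3.26 in the labelled libraries (-4.45 ± 0.32), and Maoa, monoamine oxidase A, at 149 to 181 against 33.2 and 29.2. Cyp2c29, a cytochrome P450, went the other way, at 0.699 to 0.803 against 4.55 and 5.41. The calls of these 3 genes hold, but Cyp2c29, under 1 FPKM in all BRAF libraries, could be tested only through the labelled ones. The list was also below BRAF in SMAD4KO_BRAF, with a median of -0.69. Against SMAD4KO_BRAF 8 of the 33 genes were lower in the labelled libraries and 6 were higher, with a median of -0.01.

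Structural genes of microvilli fell in part, and the list was also below BRAF in SMAD4KO_BRAF (median -0.62). Against SMAD4KO_BRAF 4 of its tested genes were lower in the labelled libraries and 1 was higher. Of 19 tested genes 10 were lower and none higher, with a median of -0.97, but 3 to 7 without each library in turn. Ush1c, a scaffold between microvilli, was at 77.1 to 87.3 FPKM in BRAF and 34.1 and 31.8 in the labelled libraries (-1.30 ± 0.15), and this call holds. Tmigd1, a membrane protein of the enterocyte, fell by 5.14 ± 0.46. At 0.206 and 0.228 FPKM in the labelled libraries, it could be tested only through BRAF. Vil1, villin, whose promoter drives the recombinase, was at 610 to 862 against 380 and 346, and its pass (limma, adjusted p = 0.0467) ended without any 1 of the 5 libraries, with values of 0.0670 to 0.21.

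**Figure D3:**
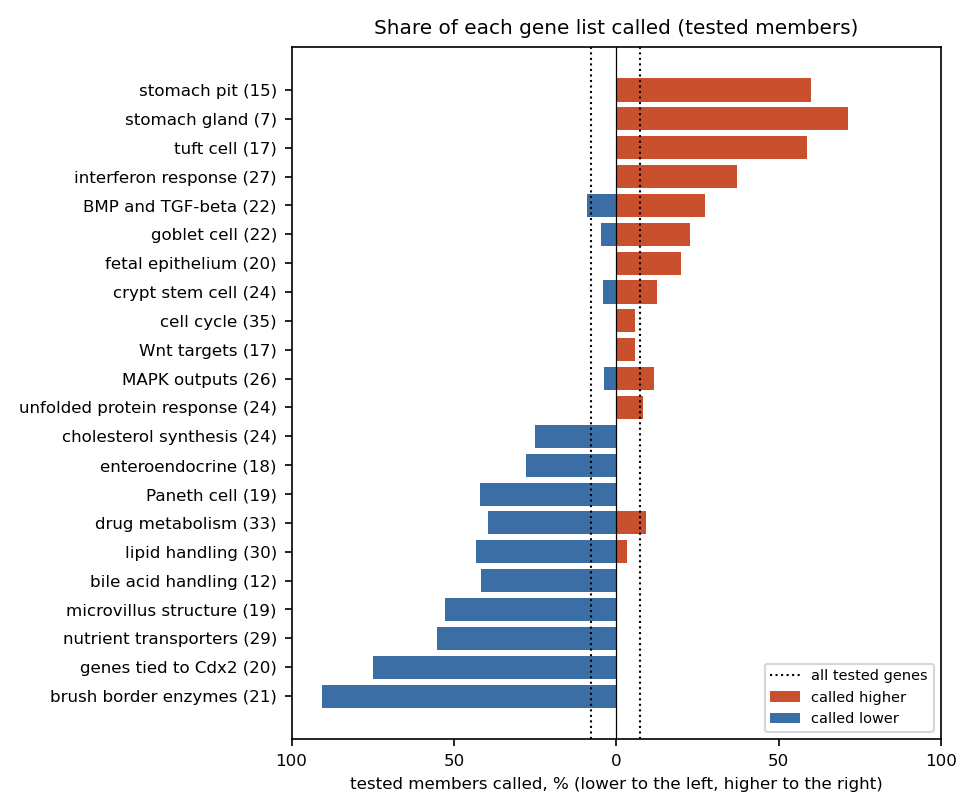
Percentage of tested members of 22 gene lists called higher (right) or lower (left) in the labelled libraries at an adjusted p under 0.05, with the number tested in brackets and dotted lines at the share of all tested genes, 7.44% higher and 7.72% lower. Among the lists drawn, the stomach and tuft cell lists extend furthest to the right and brush border enzymes furthest to the left, with 19 of 21 lower.

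Other genes among the largest falls include several enterocyte membrane enzymes. Dpep1, a membrane dipeptidase, was at 184, 116 and 132 FPKM in BRAF and 0.213 and 0.243 in the labelled libraries (-6.85 ± 0.30). Ms4a18 was at 89.1, 99.2 and 96.8 against 0.0947 and 0.422 and was at 53.4 to 90.1 in SMAD4KO_BRAF, so that the labelled libraries alone were near 0 (limma, adjusted p against SMAD4KO_BRAF = 2.94e-05). Aoc1, the diamine oxidase of the gut, fell by 6.03 ± 0.41, Pmp22 by 6.28 ± 0.66 and Mgat4c by 5.49 ± 0.32 on the log2 scale. H2-T3, the thymus leukaemia antigen of intestinal epithelium, was at 36.6 to 46.0 against 0.252 and 0.575. Enpp7, the alkaline sphingomyelinase, was at 63.6, 79.5 and 15.7 and listed at 0 in both labelled libraries. These calls hold, whereas that of Car4, a carbonic anhydrase at 0.129 and 1.10 against 104 to 271, ended without labelled library 0 (adjusted p = 0.0519).

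Other genes among the largest rises belong to no list of stomach genes. Lrg1, a secreted glycoprotein, was at 0.240 to 0.579 FPKM in BRAF and 117 and 178 in the labelled libraries (6.72 ± 0.44). Clu, clusterin, was at 4.60 to 11.4 against 255 and 744 (5.77 ± 0.73), and Plat, tissue plasminogen activator, at 0.900 to 4.01 against 80.3 and 86.0. Col18a1, a basement membrane collagen, and Mal, a protein of apical transport, rose by 5.26 ± 0.44 and 5.13 ± 0.44. Every labelled library exceeded every BRAF library at least several-fold in these 5 genes, and their calls hold. Mal was at 0.0528 to 0.653 FPKM in BRAF against 24.1 and 74.2. Lrg1 and Mal were under 1 FPKM in all BRAF libraries and so could be tested only through the labelled ones. Ly6d, at 906 and 1083 against 106, 12.7 and 17.4, did not hold without labelled library 0 (adjusted p = 0.0617) or 1 (0.0823).

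Transcription factors of the intestine moved in both directions. Of 28 tested factors 7 were higher and 6 lower, with a median of -0.08, and 3 of each direction hold. Isx, an intestine-specific homeobox factor that restrains vitamin A uptake, was at 73.2, 63.6 and 79.4 FPKM in BRAF, 55.5 to 68.9 in SMAD4KO_BRAF, and 2.03 and 2.37 in the labelled libraries. Its difference was -4.51 ± 0.14 (limma, adjusted p = 6.89e-06, at most 3.60e-04 without any 1 library). Isx thus stayed at one level in 6 libraries and was near 2 in the labelled ones.

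Factors that act with Cdx2 in enterocytes did not fall together. Hnf4g, a nuclear receptor of enterocytes, was at 110, 121 and 137 FPKM in BRAF and 15.7 and 16.8 in the labelled libraries (-2.84 ± 0.18, limma, adjusted p = 2.99e-04). Its close relative Hnf4a was at 286 to 289 against 161 and 145 (-0.91 ± 0.15, limma, adjusted p = 0.00876), and that call ended without labelled library 1 (0.0820) and after quantile normalization (0.0558). Vdr, the vitamin D receptor, was at 54.1, 97.8 and 63.3 against 8.93 and 6.63 (-3.02 ± 0.40). Cdx1, the paralog of Cdx2, was at 91.3 to 114 against 92.6 and 66.2 (-0.36 ± 0.18) and Gata4 was at -0.02 ± 0.19, and neither passed (limma, adjusted p = 0.220 and 0.964). Gata6, the relative of Gata4, was at 27.6 to 36.0 against 29.3 and 35.5, with overlap (limma, adjusted p = 0.842).

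Factors that rose include the FoxA family of foregut endoderm and secretory cells. Foxa1 was at 13.5, 10.6 and 11.7 FPKM in BRAF and 42.9 and 38.6 in the labelled libraries (1.70 ± 0.14), and Foxa3 at 9.54 to 10.3 against 28.6 and 29.3 (1.45 ± 0.13). Zfp503, a zinc finger factor, was at 1.22 to 2.02 against 11.1 and 11.7. These calls hold. Klf4, a factor of post-mitotic surface and goblet cells, was at 90.7 and 104 against 28.8 to 49.8, and its call ended without labelled library 0 (adjusted p = 0.0551) or 1 (0.0890). Pdx1, a factor of antrum, duodenum and pancreas, was at 3.52 and 5.05 against 0.245 to 1.63, with a pass (limma, adjusted p = 0.0307) that ended without either labelled library (0.0871 and 0.176) or BRAF library 2 (0.0632), and with a replicate block (0.0704).

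**Figure D4:**
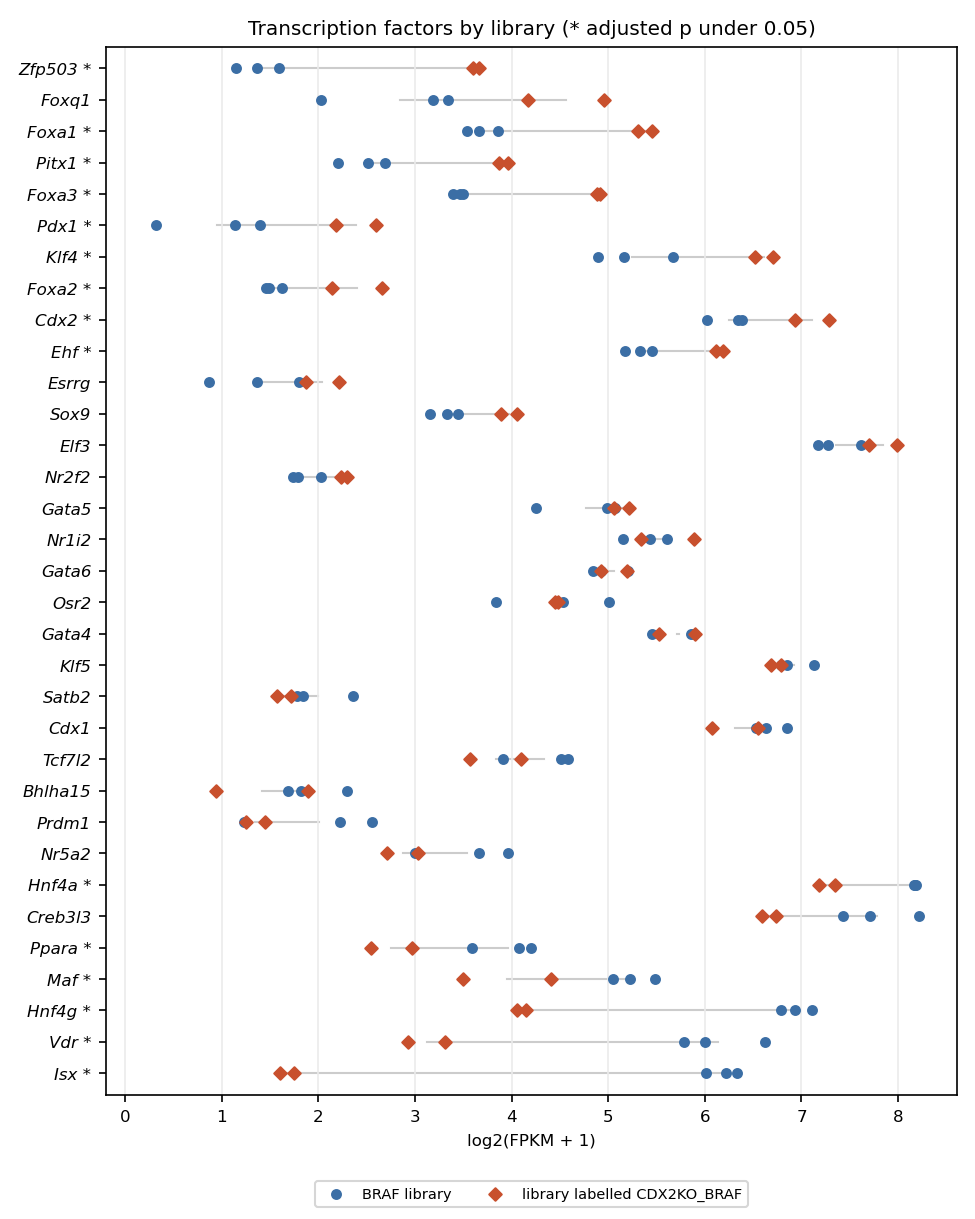
log2(FPKM + 1) of tested intestinal and foregut transcription factors, with 1 point per library and a grey line between the group means. Isx, Vdr and Hnf4g at the bottom show the widest gaps downward, Zfp503, Foxa1 and Foxa3 at the top rise without overlap, and Gata4 and Gata6 in the middle overlap.

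Of 20 genes tied to Cdx2 in the intestine 15 were lower and none higher, with a median of -1.80, and 5 to 13 were lower without each library in turn. The calls of Sis, Lct, Isx, Mep1a and Vdr hold. The list was also below BRAF in SMAD4KO_BRAF (median -0.57), and 8 of the 20 genes were lower in the labelled libraries than in SMAD4KO_BRAF. The list was drawn up with earlier results of these data known, so its direction is not independent evidence. Their promoters were searched for TTTATG on either strand (CATAAA on the other), the core of the element that caudal homeobox factors bind, over the 250 bases before each start. RefSeq promoters (GRCm38.p6) matched 8697 of the tested genes by symbol. The motif was in 10.8% of all 32851 promoters, in 5.88% of those of genes called lower, 7.11% of those called higher and 5.97% of those not called. It was in 3 of 14 promoters (21.4%) of the genes tied to Cdx2. It was also in 2 of 12 promoters (16.7%) of the tested stomach pit genes, and in 3 of 23 (13%) of the tested brush border enzymes. These shares were not tested against each other. A match is a description of the letters and not a shown binding site.

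The promoters of 3 strongly lower genes with a match and of 1 higher gene without are given, chosen after values and matches were seen, as the bases just before the start, 5′ to 3′, with the motif in capitals. The Sis match lies 43 bases, the Lct match 31 bases and the Fabp6 match 111 bases before the start. The sucrase-isomaltase promoter is known to be bound by Cdx2 near its start. Whether Cdx2 binds the marked letters of Lct and Fabp6 was not tested. The windows are chr3:72967864-72968113, minus strand (Sis), chr1:128328319-128328568, minus strand (Lct), chr11:43601563-43601812, minus strand (Fabp6) and chr6:87373115-87373364, plus strand (Gkn2).
Sis: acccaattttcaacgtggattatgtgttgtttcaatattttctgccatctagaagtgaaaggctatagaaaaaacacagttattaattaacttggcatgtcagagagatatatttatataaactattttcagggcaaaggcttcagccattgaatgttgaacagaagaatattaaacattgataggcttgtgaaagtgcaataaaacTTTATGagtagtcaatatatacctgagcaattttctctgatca
Lct: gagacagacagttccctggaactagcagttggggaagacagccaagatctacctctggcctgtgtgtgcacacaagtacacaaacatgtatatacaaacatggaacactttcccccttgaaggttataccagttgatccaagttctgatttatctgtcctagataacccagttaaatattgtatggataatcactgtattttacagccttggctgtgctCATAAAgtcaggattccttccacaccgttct
Fabp6: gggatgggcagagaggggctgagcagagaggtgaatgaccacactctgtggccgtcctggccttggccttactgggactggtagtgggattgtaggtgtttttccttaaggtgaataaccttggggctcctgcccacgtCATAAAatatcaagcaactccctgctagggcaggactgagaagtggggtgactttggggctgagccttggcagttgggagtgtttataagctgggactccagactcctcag
Gkn2: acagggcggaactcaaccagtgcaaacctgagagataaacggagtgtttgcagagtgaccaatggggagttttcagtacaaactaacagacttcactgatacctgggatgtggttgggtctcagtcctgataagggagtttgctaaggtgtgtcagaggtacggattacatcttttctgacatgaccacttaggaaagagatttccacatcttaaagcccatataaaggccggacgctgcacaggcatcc

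Tuft cells are rare chemosensory cells of the epithelium that use taste-type signalling, and many of their genes were higher. Of 17 tested tuft genes 10 were higher and none lower, with a median of 1.84, and without each library in turn 2 to 10 were higher, the 2 without labelled library 1. Of these 17 genes 6 had all BRAF libraries under 1 FPKM and could only be tested through the labelled libraries, and of the other 11 genes 4 were higher. Gnat3, the taste G protein gustducin, was at 0.0485 to 0.176 FPKM in BRAF and 3.57 and 3.79 in the labelled libraries, and Avil, an actin-binding protein, at 1.03 to 1.87 against 19.3 and 44.0 (3.59 ± 0.38, limma, adjusted p = 0.00156). Both calls hold. Pou2f3, the factor that specifies tuft cells, was at 0.194 to 0.428 against 3.48 and 7.004, and its call ended without labelled library 1 (adjusted p = 0.0594). Dclk1, a kinase used as a tuft marker, was at 0.466 to 1.02 against 3.84 and 11.6, and ended without labelled library 1 (0.137) or without any 1 BRAF library (0.0513 to 0.0631).

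Some Paneth and enteroendocrine genes were lower. Of 19 tested Paneth genes 8 were lower and none higher, with a median of -1.54 and 2 to 6 lower without each library in turn. Mptx2, a pentraxin of Paneth cells, was at 289, 246 and 574 FPKM in BRAF, 483 to 817 in SMAD4KO_BRAF and 8.79 and 14.5 in the labelled libraries (-4.81 ± 0.41). Guca2b, which encodes uroguanylin, was counted in this list but is not particular to Paneth cells. It fell by 3.38 ± 0.45, and the calls of Mptx2 and Guca2b hold. Lyz1, lysozyme, was at 2072 to 2786 against 891 and 259, and its call ended without labelled library 1 (adjusted p = 0.149) or any 1 BRAF library (0.0528 to 0.0728). Defensin genes are near-identical copies, so their values are uncertain. Of 18 enteroendocrine genes 5 were lower and none higher (1 to 3 without each library in turn). Neurog3, the factor that starts endocrine differentiation, was at 1.95 to 2.36 against 0.381 and 0.0372, with a call that ended without labelled library 1. Neurog3 was under 1 FPKM in both labelled libraries and so could be tested only through BRAF. Chga, chromogranin A, was at 7.05 to 10.3 against 8.72 and 6.70 (-0.11 ± 0.36, limma, adjusted p = 0.861).

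A few goblet genes were higher. Of 22 tested goblet genes 5 were higher and 1 lower, against 7.44% and 7.72% of all tested genes. The median was 0.18, and 4 or 5 were higher without each BRAF library in turn. Of the 5 higher calls 3 hold. The lower gene was Guca2a (-1.885 ± 0.455, limma, adjusted p = 0.0335), and its call ended without any 1 BRAF library or without labelled library 1. Ern2, a stress sensor of mucous cells, was at 13.6 to 15.6 FPKM in BRAF and 53.8 and 64.7 in the labelled libraries (1.98 ± 0.15), and Creb3l1, a secretory cell factor, at 18.8 to 27.2 against 65.2 and 59.8. With Foxa3 these calls hold. Muc2, the main intestinal mucin, was at 208 to 248 against 151 and 121 (-0.75 ± 0.24, limma, adjusted p = 0.0848, which passed with library weights, 0.0403, and in the fit of the 5 libraries alone, 0.0482). Galnt7, an enzyme that starts mucin-type sugar chains, rose by 1.69 ± 0.15, and Gcnt4 of the same pathway fell by 2.35 ± 0.25. In the whole glycosylation list 7 of 22 were higher and 4 lower, but 1 to 6 and 1 to 3 without each library in turn, lowest without labelled library 1.

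**Figure D5:**
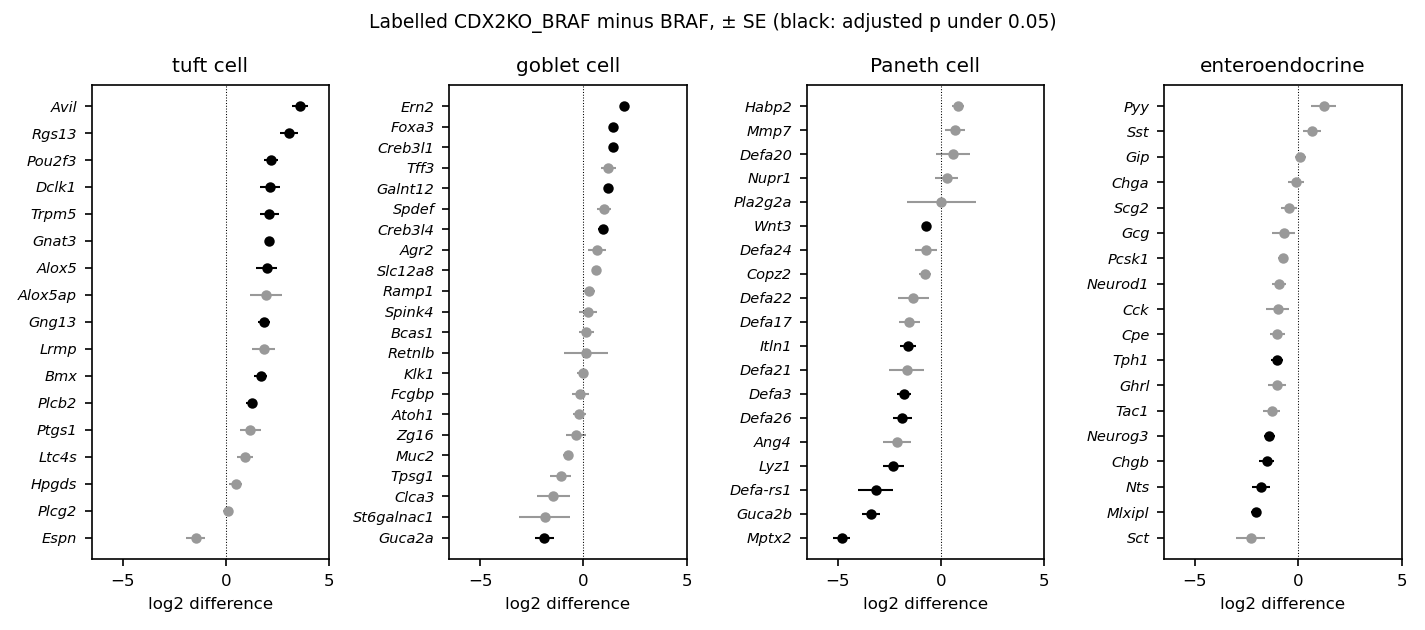
Difference in log2(FPKM + 1), labelled libraries minus BRAF, with its standard error, for the tested genes of 4 epithelial cell types, in black where the adjusted p is under 0.05. Tuft genes lie to the right of 0 except Espn, most Paneth and enteroendocrine genes lie to the left, and goblet genes lie on both sides.

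Crypt stem cell and cell cycle genes changed little by count. Of 24 tested stem cell genes 3 were higher and 1 lower, against 7.44% and 7.72% of all tested genes. None of these calls holds. Lgr5, the stem cell receptor, was at 1.26 to 2.35 FPKM in BRAF and 3.03 and 2.44 in the labelled libraries (0.49 ± 0.20, limma, adjusted p = 0.160, and 0.0402 with library weights), and Olfm4 at 144 to 398 against 409 and 204 (0.27 ± 0.52, 0.758). The groups overlap for Olfm4 and lie next to each other for Lgr5. Lgr4, the broader R-spondin receptor, was at 36.3 to 41.6 against 118 and 130 (1.64 ± 0.13, limma, adjusted p = 5.42e-04), the only 1 of 17 tested Wnt target or receptor genes to pass. Of 35 cell cycle genes 2 were higher and none lower, and 0 to 4 were higher without each library in turn, against 7.44% of all genes, and Mki67 was at 27.3 to 37.6 against 44.8 and 38.5 (0.41 ± 0.15, limma, adjusted p = 0.120, but 0.0372 without BRAF library 1).

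MAPK outputs, the targets of the activated Braf that all groups carry, passed in 3 of 26 genes upward and 1 downward. None of the 4 calls holds. Over all tested genes 7.44% passed upward and 7.72% downward. Dusp6, the ERK phosphatase, was at 83.4, 39.4 and 72.9 FPKM in BRAF and 38.5 and 41.6 in the labelled libraries (-0.62 ± 0.30, limma, adjusted p = 0.218, but 0.0187 without BRAF library 1, the lowest of the BRAF libraries). Of 22 BMP and TGF-beta genes 6 were higher and 2 lower, and 2 to 5 and 1 to 3 without each library in turn (2 higher without labelled library 0 or BRAF library 2). Id1 and Id3, which BMP signals induce, were at 41.9 to 60.8 against 312 and 235 and at 28.4 to 39.3 against 108 and 83.8, whereas Tgfbi, an extracellular matrix protein, was at 30.2 to 77.1 against 1.07 and 1.74 (-4.30 ± 0.38). The calls of these 3 genes hold. In SMAD4KO_BRAF Id3 was at 6.74 to 9.97 FPKM, below BRAF, and the labelled libraries were higher than SMAD4KO_BRAF by 3.46 ± 0.21 (limma, adjusted p = 2.60e-04).

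A part of the interferon response genes was higher. Of 27 tested genes 10 were higher and none lower, with a median of 0.99, and 4 to 11 were higher without each library in turn. Gbp3, a guanylate-binding protein, was at 0.927 to 1.48 FPKM in BRAF and 13.1 and 13.9 in the labelled libraries (2.73 ± 0.29), and Oasl2 and Oas1a, antiviral synthetase genes, were at 22.7 to 34.8 against 109 and 121 and at 12.8 to 20.8 against 72.1 and 52.4. These calls and that of the RNA sensor Ddx58 hold. T cell markers, which summed to 25.7 or more in BRAF, were at 8.59 and 47.8 in the labelled libraries, and their part in this result was not tested. None of 7 MHC class II genes passed.

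Epithelial defence and fetal-type genes gave single large changes. Of 21 tested Reg and mucosal defence genes 5 were higher and 4 lower, against 7.44% and 7.72% of all tested genes. Lcn2, an iron-scavenging lipocalin, was at 1.13 to 2.33 FPKM in BRAF and 75.8 and 24.0 in the labelled libraries (4.15 ± 0.45), and Ccl25, the chemokine of the small intestine, at 263 to 342 against 54.7 and 24.1 (-3.005 ± 0.42). Nlrp6, an inflammasome sensor, fell by 2.49 ± 0.25, and the calls of the 3 genes hold. Of 20 fetal epithelium genes 4 were higher and none lower (1 without either labelled library), of which Clu holds. Anxa1, an annexin of that list, was at 123 and 156 against 27.6, 7.42 and 6.68, and its call (limma, adjusted p = 0.0357) ended without either labelled library (0.137 and 0.171) or without BRAF library 1 (0.0874) or 2 (0.0991), and with a replicate block (0.0636). Of 15 tested tight junction genes 2 were higher and 1 lower, near the shares of all tested genes. Cldn18 was among the higher genes. The lower gene was the paracellular sodium channel Cldn15, at 230 to 245 against 37.1 and 21.1 (-3.05 ± 0.29).

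Position along the gut and neighbouring tissues was read from a few genes. Of 36 Hox genes listed, Hoxa3 alone could be tested, and it was at 3.35 to 4.02 FPKM in BRAF and 0.0180 and 0.0245 in the labelled libraries. Being under 1 FPKM in both labelled libraries, it could be tested only through BRAF. Squamous keratin genes were not tested or did not pass. Of 8 tested squamous and oesophageal genes 2 were higher and none lower, against 7.44% and 7.72% of all tested genes. Aldh3a1, an aldehyde dehydrogenase, was at 3.16 and 21.1 against at most 0.0478, so it could be tested only through the labelled libraries. The call of Serpinb5, a serpin, ended without BRAF library 1 (limma, adjusted p = 0.0677) or 2 (0.0773) or either labelled library. Lyve1, a lymphatic endothelial receptor, was at 71.2 and 47.4 against 3.75 to 3.85 (3.62 ± 0.27), while the endothelial markers Pecam1 and Cdh5 were at most 0.496 and 0.0617 in all 5 libraries. Exocrine pancreas markers summed to 12.2 to 16.75 FPKM in BRAF and 25.2 and 28.5 in the labelled libraries, nearly all of it Cela1, an elastase. Cela1 was called higher (limma, adjusted p = 0.0307), which ended without BRAF library 1 (0.0765) or 2 (0.0883) or labelled library 0 (0.108) or 1 (0.167). Cpa1, a carboxypeptidase of pancreatic juice, was listed at 0 in all 5, and the part of pancreatic RNA was not tested.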

How the data were processed

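Messenger RNA of jejunal crypts was measured in 50 bp single-end TruSeq libraries, per the labels' protocols. The deposited FPKM values are the authors' own. The tools named in the submitters' processing notes are Cuffdiff 2.2.1, Cuffnorm 2.2.1 and TopHat2 2.1.0, with the build mm9, and the role of each is not given in the sources used here. Absolute depth is unknown, so no counting interval is given. From the low values, depth relative to BRAF library 0 was 0.774 and 1.46 in the other BRAF and 1.29 and 0.946 in the labelled libraries. Columns are numbered from 0 and titles from 1, so columns were matched to groups only, and 3 further columns that match no sample were not used.

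Tested genes had 1 FPKM or more in 2 or more of the 5 libraries, and tests used log2(FPKM + 1). All 8 libraries of the 3 groups entered 1 limma fit (limma 3.58.1, R 4.3.3) with a mean-variance trend, two-sided, and a threshold of 0.05. The script was tested on simulated data. The effect of 18 alternatives is given after the report. Tables and figures used Python 3.11.15, pandas 2.3.3, numpy 2.4.6 and matplotlib 3.10.9.

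Named genes are Cdx2, Braf and Smad4, the 15 largest passing differences each way without overlap and with a mean FPKM of at least 5 in the higher group, excluding predicted and short RNA symbols, up to 8 members of each of 53 lists by smallest adjusted p, and a set of intestinal, stomach and lineage genes. Espn, Gsta1, Oit1 and untested marker genes were named after their values were seen. Some transcription factors are counted in their list but not reported here by name. Members and lists were chosen with earlier results of these data known.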

Additional observations from a re-analysis of the deposited data

How the results depend on the processing

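With 2 against 3 libraries, a single library decides many calls, and the depth behind each FPKM is unknown. Against BRAF, leaving out 1 of the 5 BRAF and labelled libraries gave 261 to 658 higher and 294 to 726 lower genes in place of 865 and 898, and against SMAD4KO_BRAF 209 to 829 higher and 145 to 598 lower in place of 820 and 598, without leaving out a SMAD4KO_BRAF library. The upper ends there come from leaving out BRAF library 1, which bears on that comparison only through the shared spread. Where 1 labelled library is left, it is assumed to vary like the other groups. A test against a minimum log2 difference of 1 left 85 higher and 116 lower genes against BRAF, and 79 and 49 against SMAD4KO_BRAF. Library weights gave 1310 higher genes against BRAF, and 1456 higher and 1034 lower against SMAD4KO_BRAF. A replicate block by the number in the column name gave 528 higher and 745 lower genes against BRAF and 458 higher against SMAD4KO_BRAF, but the numbers share only a name with the titles, and same-numbered libraries of BRAF and the labelled group had correlations of deviations of 0.0365 and 0.0307. The cause of these shifts was not tested. The remaining counts, with another filter (none, 5 FPKM, or over all 8 libraries), a 0.1 pseudocount, median-ratio or quantile rescaling, only the 5 libraries, no trend, a robust fit or a term for sex, stayed within 1.5 times, and no scaling moved the median of all genes by over 0.1. Of 245 called list members and named genes 98 (39 higher, 59 lower) kept their call in all 17 alternatives other than the minimum difference, and 77 of these also passed that one. No named gene that passed turned direction in any alternative.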
